A study of Cavia porcellus with 13 samples.

Results

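LITAFD (ENSCPOG00000030291) is 1 of the 26855 genes measured in guinea pig skin after tick bites, and the only member described here. It was chosen by its measured TPM across the 13 libraries, where it was listed at 0 in unbitten skin and at a first exposure and above 0 in every library from animals with an earlier exposure to ticks or tick saliva. Its levels are therefore given as a description, with no test. Its relative LITAF (ENSCPOG00000006659) is set beside it.

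LITAF, for lipopolysaccharide-induced TNF factor, is a small protein of late endosome and lysosome membranes. It is held there by a zinc-binding, membrane-inserting LITAF domain and binds ubiquitin ligases of the NEDD4 family and TSG101, a protein that sorts cargo into endosomes. In humans, mutations of LITAF cause a form of Charcot-Marie-Tooth neuropathy. CDIP1 (ENSCPOG00000003069), the third relative in the table, is a target of p53 that takes part in cell death. LITAFD is named for the same domain, and no role of it is taken as known here. Guinea pigs are a classic model of acquired tick resistance, in which skin that has met ticks before reacts faster to a new bite.

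The libraries hold total RNA of skin. All are labelled day 4 after the tick bite, also the naive ones without a bite, for which that label gives no time after a bite. Their titles carry 2 prefixes, CK1 and EF19-5, taken here as 2 experiments. CK1 had bitten skin of saliva immune animals (3 libraries), bitten skin at a 1st exposure (3) and skin of naive animals without a bite (2). EF19-5 had bitten skin of animals labelled 3 bites (2) and 2 bites (2) and 1 naive library. The labels give no strain, sex, age or way of immunization. Whether each library is a different animal is not stated either, so p-values measure the spread between these libraries, which may be technical. Values are TPM, the transcript share of each gene after scaling for its length, set to sum to 1000000 in each library. The depth behind them is unknown.

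The skin label was borne out by its markers. The basal keratins KRT14 and KRT5 lay at 4287 to 14039 TPM and at 1733 to 5801 TPM, and the dermal collagen COL1A1 at 689 to 5316 TPM. Skeletal muscle RNA was also present, with the muscle actin ACTA1 at 1211 to 33911 TPM.

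In CK1, LITAFD stood at 1.49, 1.11 and 1.197 TPM in the saliva immune libraries, and was listed at 0 in all 3 first exposure and both naive libraries. Saliva immune and first exposure skin were both bitten and sampled on the same day, and did not overlap: the lowest saliva immune library lay 1.11 TPM above the highest first exposure library. In EF19-5, LITAFD stood at 3.15 and 3.27 TPM in 3 bites skin and at 6.82 and 4.08 TPM in 2 bites skin, and was listed at 0 in the naive library. So 7 libraries were above 0 and 6 were listed at 0, among them 3 of the 10 bitten libraries, which is the pattern by which the gene was chosen. No fold change is given against a group listed at 0.

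**Figure D1:**
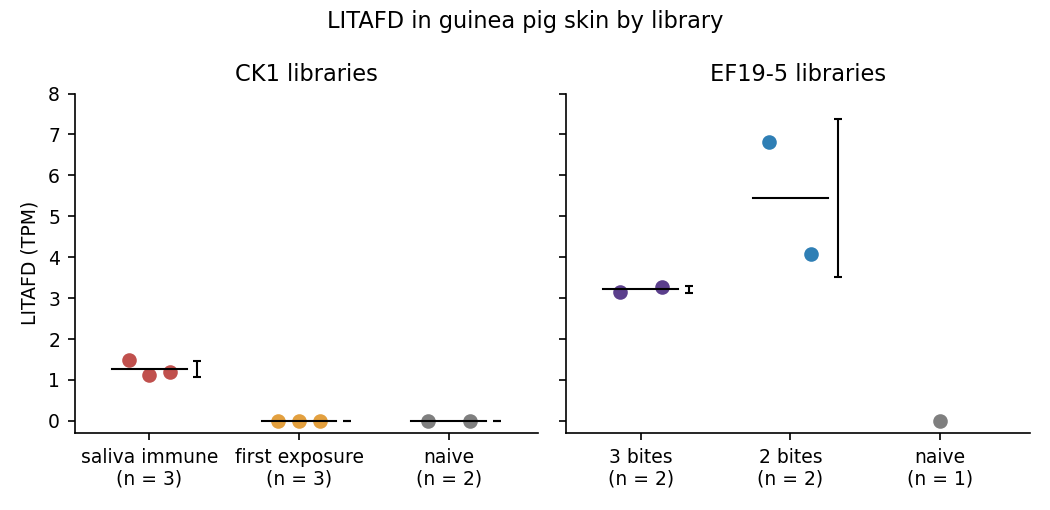
LITAFD in TPM (vertical axis) for each library (points), by group, with CK1 on the left and EF19-5 on the right; black lines are group means and bars the SD. Saliva immune libraries lie at 1.11 to 1.49 TPM, 3 bites at 3.15 and 3.27 TPM and 2 bites at 6.82 and 4.08 TPM, with every first exposure and naive library at 0.

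The mean was 5.45 ± 1.94 TPM in 2 bites (SD, n = 2), 3.21 ± 0.0877 TPM in 3 bites (n = 2) and 1.27 ± 0.199 TPM in saliva immune skin (n = 3). Between 3 bites and 2 bites the means differed by -2.24 TPM, close to the SD of the 2 bites group, although the lower 2 bites library was 0.803 TPM above the higher 3 bites library. On the log2(TPM + 1) scale that difference was -0.58, with a pooled SD of 0.31, and it was -0.27 without 2 bites replicate 1, the highest of the 13 libraries. Saliva immune skin lay below both repeat bite groups with no overlap, but it comes from the other experiment, so exposure history and experiment cannot be told apart for that step. LITAFD was a low transcript wherever it was found. Between 14.7% and 25.5% of the detected genes lay below it in saliva immune and 3 bites libraries, and 36.5% and 29.6% in the 2 bites libraries. In bulk skin, fewer cells of a type and less RNA per cell cannot be told apart.

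How often a gene is listed in this way was counted over the whole table. Among the 26855 genes, 1 was listed at 0 in all 6 naive and first exposure libraries and above 0 in all 7 others, and 0 showed the reverse. The 1 is LITAFD, and the count describes the pattern by which it was chosen. Another 8 genes were listed at 0 in the same 6 libraries and above 0 in 6 of the 7. Of the genes above 0 in all 7, 14374 were listed at 0 in none of the 6, 12 in 4 of them and 0 in 5 of them. The count of 1 became 3 without saliva immune replicate 3 or 3 bites replicate 2, 2 without 3 bites replicate 1 and 4 without 2 bites replicate 1. LITAFD is in each of these counts by construction, as leaving out a library cannot break its pattern.

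**Figure D2:**
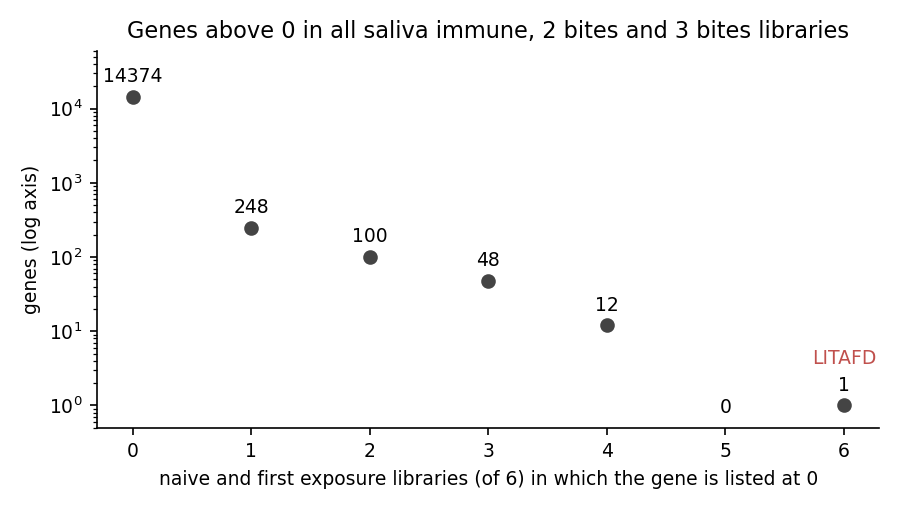
Genes above 0 TPM in all 7 saliva immune, 3 bites and 2 bites libraries, by the number of the 6 first exposure and naive libraries in which they are listed at 0 (horizontal axis); the vertical axis counts genes on a log scale, and a count of 0 is written without a point. The counts run from 14374 genes at 0 libraries down to 12 at 4, 0 at 5 and LITAFD alone at 6.

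Genes of a like level were looked up in the same libraries. Besides LITAFD, 1002 genes lay between 1.11 and 6.82 TPM, its own range, in all 7 libraries. Of these, 991 (98.9%) were above 0 in each of the 6 naive and first exposure libraries, and the other 11 were listed at 0 in at most 2 of the 6. The range comes from the values by which LITAFD was chosen, and asking for it in all 7 libraries favours steadily expressed genes. Nothing about the zeros of LITAFD is therefore read from these counts. The smallest value above 0 in a library was 0.00196 TPM or lower. That value is not a detection floor for LITAFD, since a floor depends on depth and gene length. Of the 14 ribosomal protein genes of the list used here, 0 were at 0 in any library. Those genes are abundant, at 2.23% to 3.06% of summed TPM, so they say nothing about the zeros of a low gene. An exact 0 in a TPM table can still be a failed estimate, and the read counts that would tell were not used here.

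LITAF behaved differently from its relative. It was above 0 in all 13 libraries. LITAF stood at 26.7, 28.8 and 41.4 TPM in saliva immune, at 33.5, 47.6 and 34.7 TPM in first exposure and at 30.7 and 18.3 TPM in CK1 naive libraries. In EF19-5 it stood at 32.7 and 29.0 TPM in 3 bites, 73.3 and 42.9 TPM in 2 bites and 34.4 TPM in the naive library. Saliva immune libraries overlapped with both first exposure and CK1 naive libraries, while first exposure lay above CK1 naive. In EF19-5 both 2 bites libraries lay above the naive library and both 3 bites libraries below it. The 2 bites replicate 1 library was the highest of the 13 for both genes. LITAFD amounted to 5.58%, 3.85% and 2.89% of LITAF in the saliva immune libraries, to 9.63% and 11.3% in the 3 bites libraries and to 9.31% and 9.50% in the 2 bites libraries. As a share of LITAF the 4 repeat bite libraries therefore lay within 9.31% to 11.3%, and 3 bites no longer lay below 2 bites.

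Bitten and naive skin were compared by limma over 14979 genes, with the experiment as a term. LITAF averaged 39.1 ± 13.8 TPM in bitten (n = 10) and 27.8 ± 8.40 TPM in naive skin (n = 3), a log2 difference of 0.44 (SE 0.25) that did not pass (limma adjusted p = 0.405). In this comparison 0.0401% of the tested genes were called at an adjusted p under 0.05. LITAF did not pass against naive skin at a first exposure (log2 difference 0.66, SE 0.30, limma adjusted p = 0.369; 0.0334% of genes called) or in saliva immune skin (0.40, SE 0.30, adjusted p = 0.625; 0.00668% called). Nor did it pass for the 2 repeat bite groups together against the EF19-5 naive library (0.27, SE 0.37, limma adjusted p = 1; 0.0134% called), where the spread of the lone naive library is taken from the other groups. Between saliva immune and first exposure skin, where LITAFD was above 0 in 3 of 3 and 0 of 3 libraries, the log2 difference of LITAF was -0.26 (SE 0.27, limma adjusted p = 1). In 3 bites against 2 bites skin it was -0.84 (SE 0.33, limma adjusted p = 0.421). Of all genes, 0% were called by limma in either of these, with 351 genes at an unadjusted p under 0.05 in the first and 1615 in the second.

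CDIP1 ran the other way. It stood at 35.1, 42.7 and 22.7 TPM in saliva immune, at 41.8, 28.5 and 32.5 TPM in first exposure and at 43.4 and 55.8 TPM in CK1 naive libraries. In EF19-5 it stood at 21.7 and 12.98 TPM in 3 bites, at 13.9 and 17.0 TPM in 2 bites and at 25.6 TPM in the naive library. Every bitten library lay below the naive libraries of its own experiment, and the share of all genes that do so was not counted. Skeletal muscle markers took 9.81% and 17.1% of summed TPM in the CK1 naive libraries. They took 2.46% to 10.6% in saliva immune and 4.76% to 7.30% in first exposure libraries. In EF19-5 they took 2.44% in the naive library, 0.814% to 1.56% in 3 bites and 0.674% to 0.885% in 2 bites libraries. The part of muscle in the level of CDIP1 was not tested. The log2 difference of CDIP1 between bitten and naive skin was -0.59 (SE 0.19), which did not pass over all genes (limma adjusted p = 0.19). CDIPT (ENSCPOG00000037085), which shares letters of the symbol with CDIP1 but is the phosphatidylinositol synthase and no relative, varied only between 27.0 and 40.5 TPM.

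**Figure D3:**
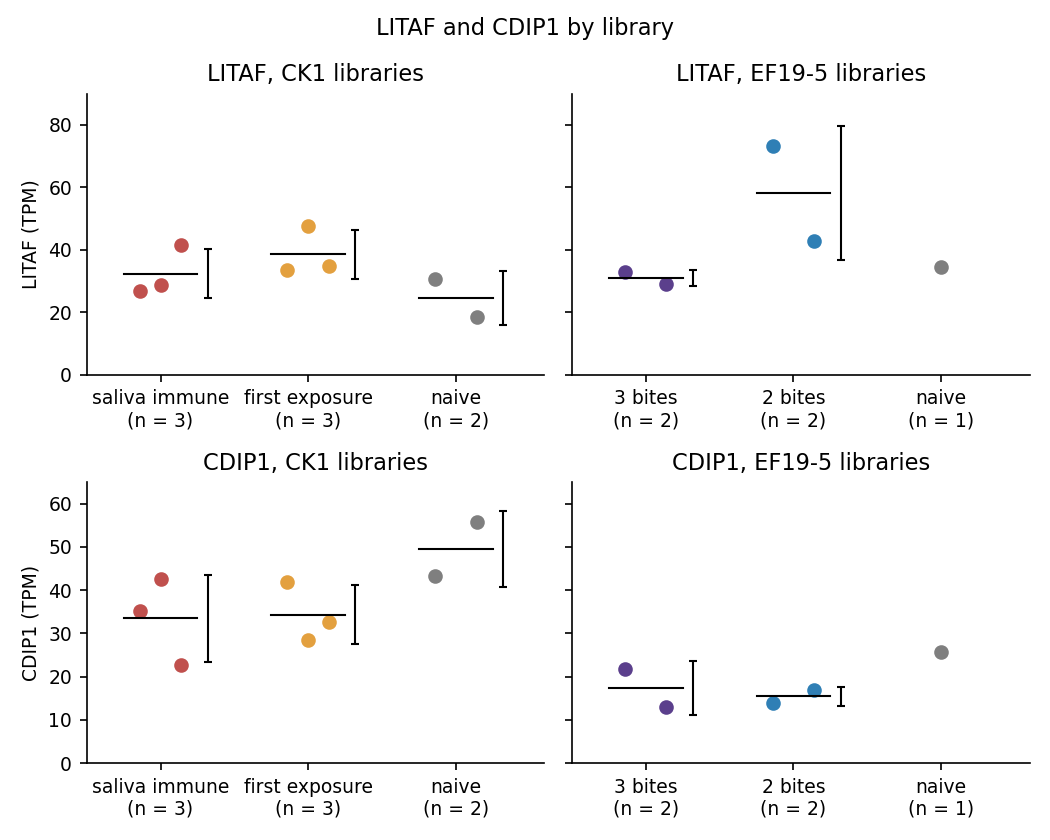
LITAF (top) and CDIP1 (bottom) in TPM for each library, laid out by experiment and group; points are libraries, black lines means and bars the SD. LITAF in saliva immune libraries overlaps with first exposure and CK1 naive, 2 bites lies above 3 bites and the EF19-5 naive library, with replicate 1 highest at 73.3 TPM, and CDIP1 in bitten libraries lies below the naive libraries of the same experiment.

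The genes most like LITAFD were found by Pearson's r of log2(TPM + 1) over the 13 libraries, among the 14978 other tested genes. Only genes with a symbol are named, and 7 genes without one also ranked in the first 16. All share the same libraries and the same step between experiments, so r is a description with no test. SPINK7, a Kazal-type serine protease inhibitor of squamous epithelium, came first (r = 0.93). SPINK7 stood at 2.25, 3.86 and 1.95 TPM in saliva immune and at 0, 0 and 2.40 TPM in first exposure libraries, with both CK1 naive libraries at 0. In EF19-5 it stood at 16.7 and 12.4 TPM in 3 bites, 52.3 and 36.8 TPM in 2 bites and 1.99 TPM in the naive library. It shares with LITAFD the order of the bitten groups with earlier exposure. Unlike LITAFD, its values in first exposure replicate 3 and in the unbitten EF19-5 naive library lay among those of the saliva immune libraries.

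SLC15A2, a transporter of small peptides, came next among genes with a symbol (r = 0.91). It stood at 2.31, 3.97 and 2.75 TPM in saliva immune against 0.78 to 0.88 TPM in first exposure and 0.61 and 0.55 TPM in CK1 naive libraries. In EF19-5 it stood at 9.12 and 2.67 TPM in 3 bites and 7.67 and 4.51 TPM in 2 bites, against 1.18 TPM in naive skin. Within the 8 CK1 libraries alone its r with LITAFD was 0.93, where that of SPINK7 was 0.76. Its lowest value in the 7 libraries with LITAFD was 2.31 TPM, and its highest in the 6 without was 1.18 TPM. Likeness to LITAFD picked the gene, so this separation is no independent support.

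KRT2, a keratin of the upper epidermis (r = 0.89), averaged 1395 ± 275 TPM in 3 bites and 2446 ± 1227 TPM in 2 bites skin (n = 2 each), against 336 TPM in the EF19-5 naive library. In CK1 it overlapped between groups, at 293 ± 54.1 TPM in saliva immune (n = 3), 178 ± 117 TPM in first exposure (n = 3) and 190 ± 89.8 TPM in naive skin (n = 2). Lta4h, the enzyme that makes the leukocyte attractant leukotriene B4 (r = 0.90), likewise followed the EF19-5 libraries, with r = 0.51 within CK1. The others were TTC16 (r = 0.91), FRMD4A, a scaffold of cell polarity (0.91), DHX32 (0.90), POC1A, a centriole protein (0.89), and STX4, a membrane fusion syntaxin (0.89). LITAF had an r of 0.45 and ranked 3642 of 14978, and CDIP1 had an r of -0.78.

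The 5 genes with a symbol least like LITAFD were KHDRBS3, an RNA-binding protein, and SLC36A2, an amino acid transporter (r = -0.88 each), followed by PPP1R3F (-0.86), the small heat shock protein HSPB8 (-0.85) and the mitochondrial enzyme MCAT (-0.85). KHDRBS3 averaged 2.64 ± 0.391 TPM in the 7 libraries with LITAFD and 3.90 ± 0.601 TPM in the 6 without. Across all tested genes, 18 (0.12%) lay higher in each of the 7 libraries than in each of the 6, and 1 (0.00668%), KHDRBS3, lay lower in each. LITAFD is among the 18 by the values that chose it, and passed the filter only through the 7 libraries, so nothing is read from its place there. Its gap between the 2 sets was 1.08 on the log2(TPM + 1) scale. Among the others were SLC15A2 (gap 0.60) and, named after their values were seen, PGGHG (0.32), an enzyme that trims collagen-linked sugars, LAT2 (0.18), an adaptor of immune receptor signalling, and KRT9 (0.31), a keratin of thick skin.

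**Figure D4:**
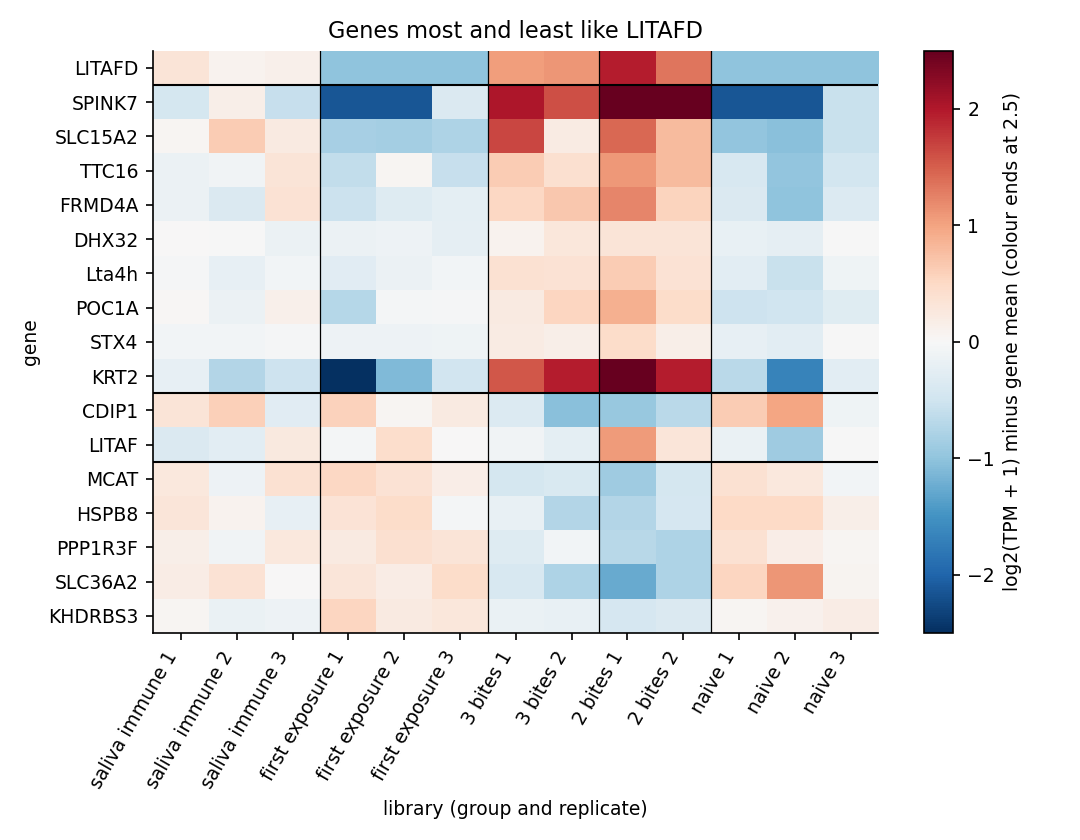
Colour shows log2(TPM + 1) minus the gene's own mean over 13 libraries (columns, grouped by condition); rows are LITAFD, 9 genes most like it, its relatives CDIP1 and LITAF, and the 5 least like it. LITAFD, SPINK7 and KRT2 are highest in 2 bites replicate 1, and LITAFD is uniformly low in first exposure and naive libraries.

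The cell makeup of the libraries was set beside LITAFD through 19 lists of cell type markers, as the share of summed TPM each list takes. In saliva immune against first exposure skin the shares of all 19 lists overlapped, and the share of all genes that do so was not counted. Epidermal differentiation markers (11 in the table) took 0.921% to 1.79% in saliva immune and 1.04% to 1.88% in first exposure libraries, with 0 of the 11 listed at 0 in any library. Skeletal muscle markers (34) took 2.46% to 10.6% and 4.76% to 7.30%, and monocyte and macrophage markers (16) 0.0321% to 0.0702% and 0.0303% to 0.0342%. The shares of all 19 lists also overlapped between the 7 libraries with LITAFD and the 6 without, a split made by LITAFD itself. Overlap is the usual outcome there: of all tested genes, 18 (0.12%) lay higher in each of the 7 and 1 (0.00668%) lower. The part of cell makeup in the level of LITAFD was not tested.

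In EF19-5 the only naive library is a single one, so its own variation cannot be told apart from the groups. Of the 19 lists, 8 took a higher share in all 4 repeat bite libraries than in the naive library and 3 a lower one. Against a lone library, many lists can lie wholly to one side through the spread between libraries. The share of all genes that do so was not counted, so no shift in cell makeup is read from these counts. Epidermal differentiation markers took 3.46% and 4.16% in 3 bites and 3.01% to 4.79% in 2 bites libraries, against 2.17% in the naive library. Skeletal muscle markers took 0.674% to 1.56% in the 4 repeat bite libraries, against 2.44%. Neutrophil markers (13) took 0.0218% to 0.0638%, against 0.0181%, with 1 to 4 of the 13 listed at 0 in the repeat bite libraries and 3 in the naive one. The part of these differences in the level of LITAFD was not tested.

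The other genes of the pathway came from 5 lists, which share some genes, besides the family itself. None of their members was called by limma in any of the 6 comparisons, where between 0% and 0.0401% of all tested genes were called, so a count of 0 is near the background. Of the 11 partners that bind LITAF, 7 were higher and 4 lower in bitten than in naive skin (median log2 difference 0.02, against 0.10 over all tested genes). The share of all tested genes that lay higher was not counted in any comparison. No response of a list is therefore read from such counts, here or for the other lists. HGS, an endosomal sorting protein, averaged 54.0 ± 5.98 TPM in bitten (n = 10) and 42.8 ± 7.33 TPM in naive skin (n = 3; limma adjusted p = 0.239). The WW-domain oxidoreductase WWOX averaged 10.6 ± 1.18 and 8.15 ± 1.78 TPM in the same 2 groups (limma adjusted p = 0.255), and the ubiquitin ligase WWP1 77.1 ± 19.3 and 108 ± 39.8 TPM (0.306). The gap in WWP1 lay in CK1, at 129 TPM in naive, 95.0 TPM in saliva immune and 73.1 TPM in first exposure skin. In EF19-5 WWP1 averaged 67.5 TPM in the lone naive library, 67.1 TPM in 3 bites and 66.1 TPM in 2 bites skin. NEDD4, ITCH and TSG101, named for their role, averaged 4.73 ± 1.92, 28.4 ± 2.81 and 65.6 ± 2.34 TPM in saliva immune skin (n = 3), against 5.43 ± 0.798, 28.6 ± 2.47 and 71.5 ± 2.41 TPM in first exposure skin (n = 3). The TSG101 libraries of those groups did not overlap, but the log2 difference of -0.12 (SE 0.10) did not pass (limma adjusted p = 1). The share of all genes without overlap between those groups was not counted, so nothing is read from it for TSG101. Among the 26 ESCRT genes, which form the endosomal sorting machinery, 18 were higher and 8 lower in bitten skin (median 0.09). The ESCRT genes with the next smallest p after HGS were VPS36, at 29.0 ± 4.60 TPM in bitten and 38.5 ± 10.04 TPM in naive skin, and MVB12A, at 36.2 ± 5.93 and 29.5 ± 2.00 TPM. VPS36 averaged 43.9 TPM in naive, 32.2 TPM in saliva immune and 28.5 TPM in first exposure skin of CK1. In EF19-5 VPS36 averaged 27.7 TPM in the naive library, 27.9 TPM in 3 bites and 26.0 TPM in 2 bites skin.

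Late endosome and lysosome genes had 23 of 27 members higher in bitten skin (median 0.19, against 0.10 over all tested genes, whose share lying higher was not counted). NPC2, which carries cholesterol out of lysosomes, averaged 152 ± 31.7 TPM in bitten and 104 ± 33.6 TPM in naive skin (limma adjusted p = 0.117). LIPA, the lysosomal acid lipase, averaged 26.3 ± 10.3 and 13.4 ± 4.56 TPM, and GAA, which breaks down glycogen in lysosomes, 20.3 ± 3.80 and 15.5 ± 0.653 TPM in those groups. The lipopolysaccharide and TNF response list had 24 of 27 tested members higher (median 0.39), with the TNF receptor TNFRSF1B at 19.2 ± 3.70 TPM in bitten and 9.68 ± 4.55 TPM in naive skin (log2 difference 0.96, limma adjusted p = 0.0789). TNF itself, the cytokine LITAF is named for, averaged 2.59 ± 0.950 TPM in bitten and 1.33 ± 0.720 TPM in naive skin (log2 difference 0.64, SE 0.26, limma adjusted p = 0.277), and 3.02 ± 1.41 TPM in saliva immune against 2.87 ± 0.907 TPM in first exposure skin (n = 3 each). TLR4, the receptor for lipopolysaccharide, averaged 5.87 ± 1.58 and 3.12 ± 1.32 TPM (limma adjusted p = 0.128), and the NF-kappaB subunit RELB 31.5 ± 5.07 and 21.2 ± 5.59 TPM (0.178). Of 13 p53 and cell death genes, 9 were higher (median 0.12), among them BCAP31, an endoplasmic reticulum protein that binds CDIP1, at 201 ± 25.3 TPM in bitten and 146 ± 29.7 TPM in naive skin (limma adjusted p = 0.166). The other 2 with the smallest p were the death inhibitor BCL2, at 14.6 ± 9.80 and 19.2 ± 10.7 TPM, and the death effector BAX, at 42.6 ± 9.89 and 33.1 ± 2.40 TPM. In CK1, BCAP31 averaged 131 TPM in naive, 202 TPM in saliva immune and 222 TPM in first exposure skin. In EF19-5 it averaged 178 TPM in the naive library, 170 TPM in 3 bites and 198 TPM in 2 bites skin. BCL2 averaged 24.8, 23.5 and 18.8 TPM in the same 3 groups of CK1, and 8.01, 5.03 and 4.60 TPM in those of EF19-5.

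In saliva immune against first exposure skin these lists lay near the median of all genes, 0.02. Their own medians were -0.03 for LITAF partners (3 of 11 higher), -0.04 for ESCRT (9 of 26), -0.03 for late endosome and lysosome (13 of 27), -0.01 for lipopolysaccharide and TNF response (13 of 27) and -0.01 for p53 and cell death genes (4 of 13). The smallest limma adjusted p in any of them was 1.

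**Figure D5:**
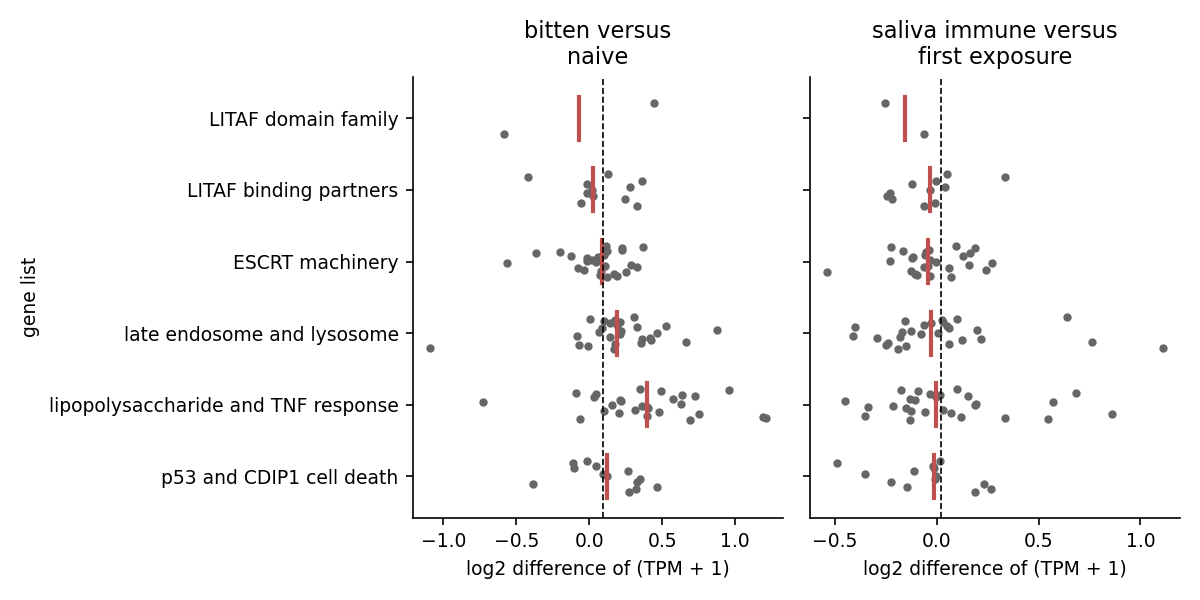
Log2 difference of (TPM + 1) for each tested member (grey points) of the LITAF-related lists, in bitten versus naive skin (left) and saliva immune versus first exposure skin (right); red bars are list medians and the dashed line the median of all 14979 tested genes. In bitten skin the lipopolysaccharide and TNF response list has the highest list median (0.39), while in saliva immune skin the 5 lists besides the family lie between -0.04 and -0.01.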

How the data were processed

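Skin RNA libraries (13, from 5 groups) were read from 1 table of TPM values as the authors deposited them, with 26855 genes and a column per library. Per the submitters' processing notes the tools included Trimmomatic (read trimming), StringTie (transcript quantification) and DESeq, with no versions. No source used here gives the aligner, genome build or annotation. Because TPM are shares, more RNA of an abundant tissue such as muscle lowers all other values. Depth is unknown. No coordinates or sequences are given.

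The 14979 genes that reached 1 TPM in 2 or more libraries entered limma 3.58.1 (R 4.3.3) as log2(TPM + 1), with an intensity trend, two-sided, Benjamini-Hochberg adjustment over all genes and a threshold of 0.05. A fold change on that scale understates the change of low genes. LITAFD passed the filter only through the 7 libraries where it was above 0, and counts over all tested genes include it. Its own result in the fit was not read, and nothing about LITAFD is read from those counts. Bitten against naive used a bitten and an experiment term over all libraries, and the other 5 comparisons group means within experiment. The fit was run on simulated data with independent noise, no step between experiments and large changes in well expressed genes. That checks the code, and not how well the model suits these libraries.

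The gene, lists and rules were chosen with earlier results of these data known. Named genes are LITAFD, symbols holding LITAF or CDIP, the 10 genes most and 5 least like LITAFD, and, per list, the 3 genes of lowest p for bitten against naive skin; TNF, NEDD4, ITCH and TSG101 were added for their role. 1 of the 10 most like is not reported here, and gene neighbours were not analysed here. Alternatives were a pseudocount of 0.1, median-of-ratios scaling, TPM rescaled without 34 skeletal muscle genes, no filter, no experiment term and leaving out each library.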

Additional observations from a re-analysis of the deposited data

Results flagged for a closer look

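LITAF stood above the mean of its own naive libraries in all 3 saliva immune, all 3 first exposure and both 2 bites libraries, and below it in both 3 bites libraries. For 2 bites and 3 bites that mean is a single library, at 34.4 TPM, whose spread is taken from the other groups. Both 3 bites libraries lay within the range of the naive libraries of both experiments, 18.3 to 34.4 TPM. The difference between the effects of these groups against their naive libraries was tested in limma. It was 0.56 (SE 0.50, adjusted p = 1) on the log2 scale for saliva immune minus 3 bites and 0.81 (SE 0.50, adjusted p = 1) for first exposure minus 3 bites. For 3 bites minus 2 bites, which share 1 naive library, it was -0.84 (SE 0.33, adjusted p = 0.421). None of the 3 passed. Groups held 2 or 3 libraries, too few to look for a single outlying library.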

How the results depend on the processing

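The zeros of LITAFD cannot change with scaling or with leaving out a library. Under median-of-ratios scaling its mean in 3 bites skin was 2.84 TPM, and that of LITAF 27.4 TPM. The log2 difference of LITAFD between 3 bites and 2 bites lay between -0.89 and -0.27 without single libraries; against groups at 0 no value could be given. The count of genes listed at 0 in the 6 libraries and above 0 in the 7 was 1, and lay between 1 and 4 without single libraries. Counting genes under 0.1 TPM in the 6 and at least 0.5 TPM in the 7, chosen after seeing the data, also gave 1 gene. The direction of LITAF held in all 6 comparisons under every alternative and passed in none. CDIP1, whose alternatives were added later, turned sign in 3 bites against 2 bites under median-of-ratios scaling (-0.057, against 0.12), and lay between -0.23 and 0.47 there and between -0.25 and 0.19 in saliva immune against first exposure without single libraries; the cause was not tested.

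Counts of called genes were unstable. With a pseudocount of 0.1 they were 12 in bitten (against 6) and 5 in saliva immune (against 1). Without the experiment term they were 3 in bitten, 1 in first exposure (against 5), 2 in saliva immune and 210 in repeat bites against naive skin (against 2). Without the filter they were 3 in first exposure, 2 in saliva immune, 35 in repeat bites and 4 in 3 bites against 2 bites (against 0). Median-of-ratios scaling gave 3 in saliva immune and 1 in repeat bites. Without single libraries counts ranged from 1 to 31 in bitten, 1 to 19 in first exposure, 1 to 6 in saliva immune, 1 to 3 in repeat bites, 0 to 1 in saliva immune against first exposure and 0 to 4 in 3 bites against 2 bites. Repeat bites against naive could not be fitted without naive replicate 3. No paired analysis was possible because the labels give no replicate numbers shared between groups.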
